A study of Mus musculus with 6 samples.

Results

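The genes Sox1, Sox2, Sox3, Sox21, Hes3, Hes5, Nes, Fabp7, Msi1 and Lin28a were examined as a set of 10 pan-neural progenitor genes. This is the name of the set, and where in the tissue each gene is expressed was not measured. The 10 genes were chosen by symbol, and each was represented by 1 probe, so the set comprised 10 of the 18699 genes with a named probe on the array. The tissue was the part of mouse embryos behind the forelimb bud at embryonic day 9.5, taken from 3 samples labelled Fkbp8 mutant (replicates a, b and c) and 3 samples labelled wildtype (replicates d, e and f). All embryos came from crosses between heterozygous carriers of the Fkbp8 mutation, which the labels do not describe, and strain and sex are not given in the sources used here. The source label of mutant a is written in the plural, so it may be a pool. RNA of each was read on a separate 1-colour CodeLink Mouse Whole Genome array, and the study's title asks about cell death and dorsoventral patterning of the posterior neural tube.

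The SoxB1 factors Sox1, Sox2 and Sox3 are transcription factors that hold neural progenitors in an undifferentiated state and oppose the proneural factors, and Sox21, of the related SoxB2 group, acts against them. Hes3 and Hes5 are basic helix-loop-helix repressors of proneural genes. Hes5 is a direct target of Notch signalling, by which a cell that starts to differentiate keeps its neighbours as progenitors. Nestin (Nes) is an intermediate filament protein of progenitors, Fabp7 a fatty acid binding protein of radial glia, and Msi1 an RNA-binding protein of neural stem cells. Lin28a, an RNA-binding protein that blocks maturation of let-7 microRNAs, is abundant in the early embryo and declines as development goes on.

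The upstream sequence of Hes5 is shown because it carries letters of the site through which Notch signalling acts. RefSeq promoter windows, from 250 bases before to 50 bases after the gene start, were at hand for 7 of the 10 genes (Sox1, Sox2, Sox21, Hes5, Nes, Fabp7 and Lin28a). The 250 bases before the Hes5 start are chr4:154960673-154960922 of GRCm38.p6, plus strand, and the capitals mark the letters TGGGAA, the core of the site of the Notch effector RBPJ, on either strand.
Hes5 upstream: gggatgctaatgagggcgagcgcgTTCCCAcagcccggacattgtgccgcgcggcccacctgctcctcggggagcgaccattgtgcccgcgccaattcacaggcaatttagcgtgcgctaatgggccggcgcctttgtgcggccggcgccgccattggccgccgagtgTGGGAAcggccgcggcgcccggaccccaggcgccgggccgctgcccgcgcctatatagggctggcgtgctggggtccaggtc
The matches began 226 and 82 bases before the start. Over all 32851 promoter windows of the same length, 25.6% held TGGGAA at least once on either strand and 3.79% held it 2 or more times. Among the other windows of the set, Sox1, Fabp7 and Lin28a held 1 match each and Sox2, Sox21 and Nes none. The N box CACNAG, the kind of site that Hes proteins bind, was in 42.5% of all windows and in those of Sox21 and Fabp7 (both strands searched), and not in that of Hes5. A match is only a run of letters and says nothing of binding in this tissue.

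The arrays separated the genotypes by the targeted gene. The Fkbp8 probe averaged 6.23 ± 0.10 in mutants, where it was above background on 0 of 3 arrays, and 10.66 ± 0.09 in wildtypes (log2 intensity, SD, n = 3 each), at least 18.8-fold lower in mutants (limma adjusted p = 1.18e-07). Between 57.6% and 61.8% of the 34967 gene probes per array were above the scanner software's background threshold, with the lowest share in mutant c. In all 3 mutants and 0 wildtypes the Y-linked genes Uty, Ddx3y and Eif2s3y exceeded background, whereas Xist, the RNA of the inactive X chromosome, did so in 0 mutants and all 3 wildtypes. Genotype and these sex-linked signals cannot be told apart on these arrays for any gene below, the X-linked Sox3 included. In such bulk tissue, fewer cells of a type and less RNA per cell cannot be told apart either.

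The 10 genes were detected on all 6 arrays, and none of them passed the test. Of the 21688 probes tested with limma, 0.12% passed a Benjamini-Hochberg adjusted p of 0.05 (0.0553% lower and 0.0646% higher in mutants), and 0 of the 10 genes did. At an unadjusted p under 0.05 there were 3 of them (Hes3 and Sox2 lower and Fabp7 higher in mutants), against 12.2% of all probes (5.81% lower, 6.43% higher). The groups did not overlap for 5 genes (Hes3, Sox2 and Msi1 lower, Nes and Fabp7 higher in mutants), against 19.7% of all probes (8.56% lower). Log2 fold changes of mutant over wildtype were negative for 7 genes and positive for 3, with a median of -0.13, beside 47.6% negative and a median of 0.01 over all probes. All 6 transcription factors of the set had negative values, and 3 of the 4 other genes had positive ones.

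**Figure D1:**
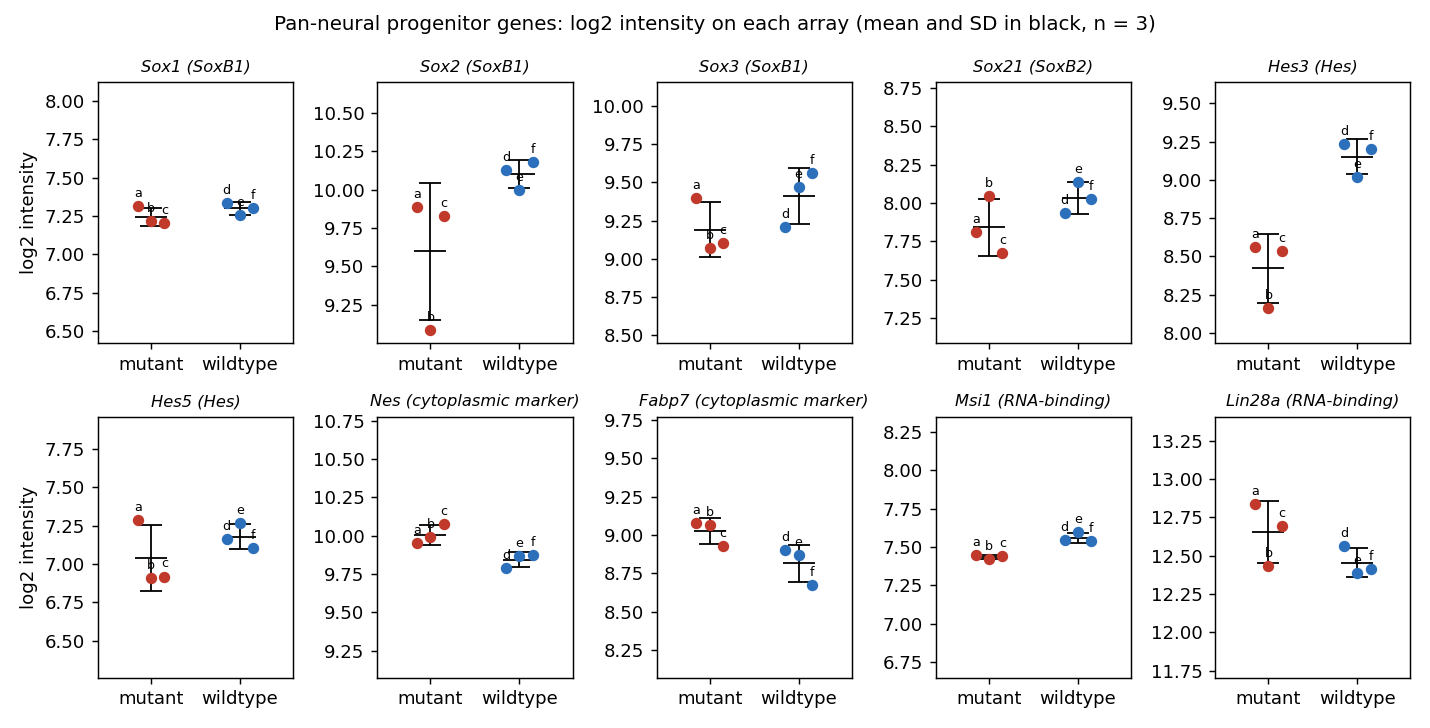
Log2 intensity of each gene on each array (points, with replicate letters), mutant left of wildtype, with the mean and SD of each group in black (n = 3). Each panel spans the same number of log2 units, so that the separation at Hes3, the low Sox2 value of mutant b and the narrow spread of Msi1 can be compared.

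Among the SoxB1 genes Sox2 had the widest difference, and mutant b set much of it. On the deposited scale, on which the median gene probe of an array is 1, Sox2 had 15.2, 7.88 and 13.5 in mutants a, b and c, against 17.2, 15.8 and 17.4 in wildtypes d, e and f. Mutant b thus stood well under the other mutants, and mutant a was close to wildtype e. The log2 intensity averaged 9.60 ± 0.45 in mutants and 10.10 ± 0.09 in wildtypes (SD, n = 3 each), a log2 fold change of -0.50 with a 95% interval of -0.94 to -0.07 (limma adjusted p = 0.356). Without mutant b the log2 fold change was -0.25 (limma adjusted p = 0.417), and without mutant a it was -0.65 (limma adjusted p = 0.23).

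Sox1 and Sox3 overlapped between the groups. Sox1 had 1.67, 1.47 and 1.44 in mutants a, b and c, against 1.70, 1.54 and 1.62 in wildtypes d, e and f, which is a narrow range over all 6 arrays. Its log2 fold change was -0.05 (95% interval -0.22 to 0.11, limma adjusted p = 0.797), an interval of 0.858 to 1.08 as a ratio. Sox1 is dim, and the offset added in background correction draws its ratio towards 1. This interval is therefore no bound on the ratio without the offset. With the deposited values, which lack the offset, the log2 fold change was -0.09, with a wider 95% interval of -0.32 to 0.15. With the offset and 1 array left out, the Sox1 value ranged from -0.09 (without mutant a) to -0.03 (without mutant c). Sox1 lies on the chromosome of Fkbp8 in the gene order of GRCm38.p6, with 229 other tested genes between them. Sox3 had 10.5, 7.82 and 7.83 in mutants a, b and c, against 8.62, 10.6 and 11.1 in wildtypes d, e and f. Mutant a was within the wildtype range and wildtype d within the mutant range, and the log2 fold change was -0.22 (95% interval -0.50 to 0.06, limma adjusted p = 0.493), which became -0.14 without wildtype f. The Sox3 probe is named by the platform annotation alone, and the array file describes its source as a cDNA clone with an apparent retained intron.

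Sox21 likewise overlapped, with 2.76, 3.34 and 2.31 in mutants a, b and c, against 3.04, 3.65 and 3.28 in wildtypes d, e and f. Mutant b, the lowest for Sox2, was the highest mutant here and lay within the wildtype range. The log2 fold change of Sox21 was -0.19 (SE 0.11, limma adjusted p = 0.506). It was -0.29 without mutant b (limma adjusted p = 0.393) and -0.11 without mutant c (0.689).

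Hes3 was the member with the widest separation. It had 5.43, 3.70 and 4.93 in mutants a, b and c, against 8.80, 7.59 and 8.47 in wildtypes d, e and f on the deposited scale. All mutants lay below all wildtypes, with a gap of 0.46 log2 units between the highest mutant and the lowest wildtype, and mutant b was again the lowest. The log2 intensity averaged 8.42 ± 0.22 in mutants and 9.15 ± 0.11 in wildtypes (SD, n = 3 each). The log2 fold change was -0.73 (SE 0.12, 95% interval -1.0 to -0.46), a ratio of 0.603, and ranked 39 among the tested probes by p. It did not pass the adjustment over all probes (limma adjusted p = 0.122), and an exact two-sided permutation test gave p = 0.1, the smallest that 3 against 3 allows. The ratio of the group means was 0.566 with the deposited values, which lack the offset of 50 that draws ratios of dim probes towards 1.

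Hes5, the Notch target shown above with its upstream sequence, was dim and overlapped. It had 1.61, 1.01 and 1.02 in mutants a, b and c, against 1.39, 1.55 and 1.30 in wildtypes d, e and f. Mutant a exceeded all wildtypes, while mutants b and c were below them. The background-subtracted intensity was 53.4 to 97.8 in mutants and 83.5 to 97.9 in wildtypes, beside local backgrounds of 42 to 50 on the 6 arrays. The log2 fold change was -0.14 (95% interval -0.40 to 0.12, limma adjusted p = 0.636). Without mutant a it was -0.26 (limma adjusted p = 0.261), without mutant b -0.08 (0.838) and without mutant c -0.08 (0.807).

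Set against the SoxB1 genes, Hes3 differed more from wildtype than Sox1 and Sox3 in every mutant sample. Hes5 was near Sox3 in the mutants, though not in every wildtype. Relative to the wildtype mean, Hes3 stood at -0.59, -0.98 and -0.61 log2 units in mutants a, b and c. The corresponding values were 0.01, -0.08 and -0.10 for Sox1, -0.02, -0.34 and -0.31 for Sox3, and -0.22, -1.02 and -0.28 for Sox2. In mutant b Sox2 and Hes3 were thus about as far below wildtype as each other, while in mutants a and c Hes3 was further below by 0.37 and 0.34 log2 units. Hes5 stood at 0.11, -0.27 and -0.26, within 0.13 log2 units of Sox3 in every mutant. Hes5 less Sox3 was 0.19, 0.03 and -0.22 in wildtypes d, e and f, a wider range than in mutants. The mean of Hes3 and Hes5 less that of Sox1, Sox2 and Sox3 was -0.17, -0.15 and -0.21 in mutants a, b and c, against 0.08, 0.01 and -0.09 in wildtypes d, e and f. This combined value rests on Hes3, and since the genes were grouped with earlier results known it is a description with no test.

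**Figure D2:**
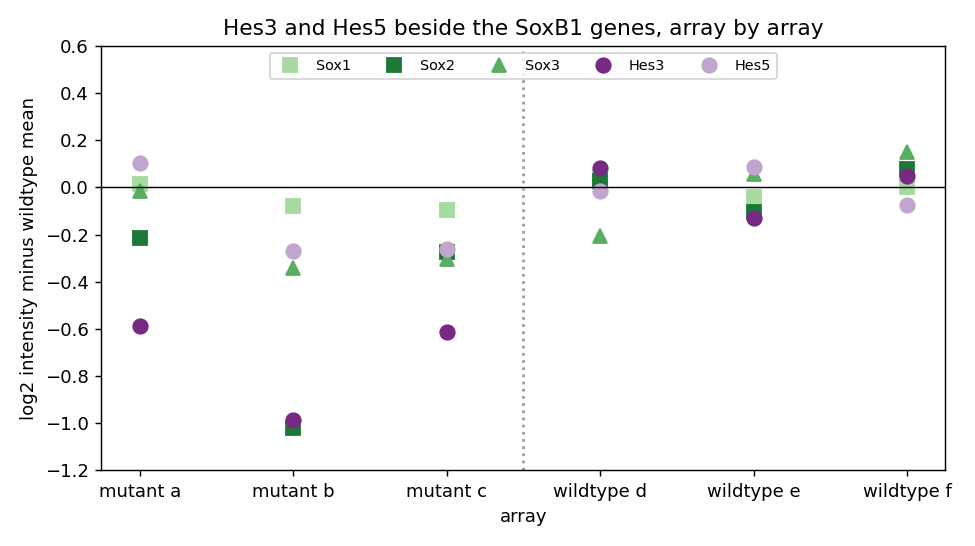
Log2 intensity minus the wildtype mean for Sox1, Sox2, Sox3 (green), Hes3 and Hes5 (purple) on each of the 6 arrays, mutants on the left. Hes3 is lowest or next to lowest on each mutant array, Sox2 joins it on mutant b at -1.02, and Hes5 and Sox1 stay nearer to 0.

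The progenitor markers Nes and Fabp7 had values in the opposite direction. Nes had 15.9, 15.6 and 16.3 in mutants a, b and c, against 13.3, 14.2 and 14.04 in wildtypes d, e and f, with no overlap and little spread in either group. Its log2 fold change was 0.16 (95% interval -0.01 to 0.33, limma adjusted p = 0.424). Fabp7 had 8.18, 7.78 and 6.80 in mutants a, b and c, against 6.82, 6.66 and 5.64 in wildtypes d, e and f. On the deposited scale mutant c was just below wildtype d, and after quantile normalization it was just above, by 0.02 log2 units. The log2 fold change of Fabp7 was 0.21 (95% interval 0.01 to 0.41, limma adjusted p = 0.397).

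The RNA-binding genes differed from each other in sign. Msi1 had 1.92, 1.83 and 1.83 in mutants a, b and c, against 2.10, 2.21 and 2.10 in wildtypes d, e and f. The groups did not overlap, but the gap was 0.09 log2 units, and the log2 fold change was -0.12 (SE 0.07, limma adjusted p = 0.501). Lin28a had 116.5, 89.5 and 111.7 in mutants a, b and c, against 96.8, 87.3 and 82.7 in wildtypes d, e and f. Mutant b lay inside the wildtype range, and the log2 fold change was 0.20 (95% interval -0.05 to 0.45, limma adjusted p = 0.499). It was 0.11 without mutant a (limma adjusted p = 0.714) and 0.31 without mutant b (0.378).

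**Figure D3:**
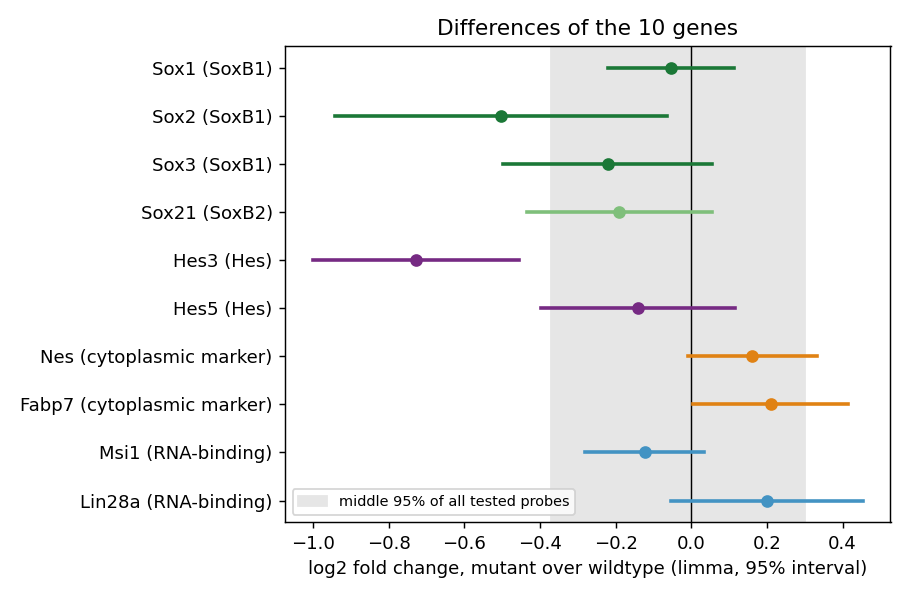
Log2 fold change of mutant over wildtype for each gene with its 95% interval from limma, coloured by role, over the middle 95% of all tested probes in grey (-0.37 to 0.30). Only Hes3 and Sox2 have values left of the grey band, and the intervals of Hes3, Sox2 and Fabp7 leave out 0 before adjustment.

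Variation between mutant samples was larger than between wildtype samples for 7 of the 10 genes, with a median SD of 0.18 in mutants and 0.09 in wildtypes on the log2 scale. Over all tested probes the median SD was 0.11 in mutants and 0.09 in wildtypes. Mutant b gave the lowest mutant value for 6 of the 10 genes, among them 4 of the 6 transcription factors (Sox2, Sox3, Hes3 and Hes5). Summed over the brightest probe of each gene on the deposited scale, genes of the caudal neural plate and tailbud were 145.1, 109.7 and 114.9 in mutants a, b and c, against 142.7, 126.9 and 138.0 in wildtypes d, e and f. Mutant b was thus also lowest for that list, whose part in the Sox2 and Hes3 values was not tested. Mutant b was also the highest array for 11 somite and mesoderm genes. Their mean log2 level was 9.26, 9.54 and 9.26 in mutants a, b and c, against 9.21 to 9.42 in wildtypes.

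**Figure D4:**
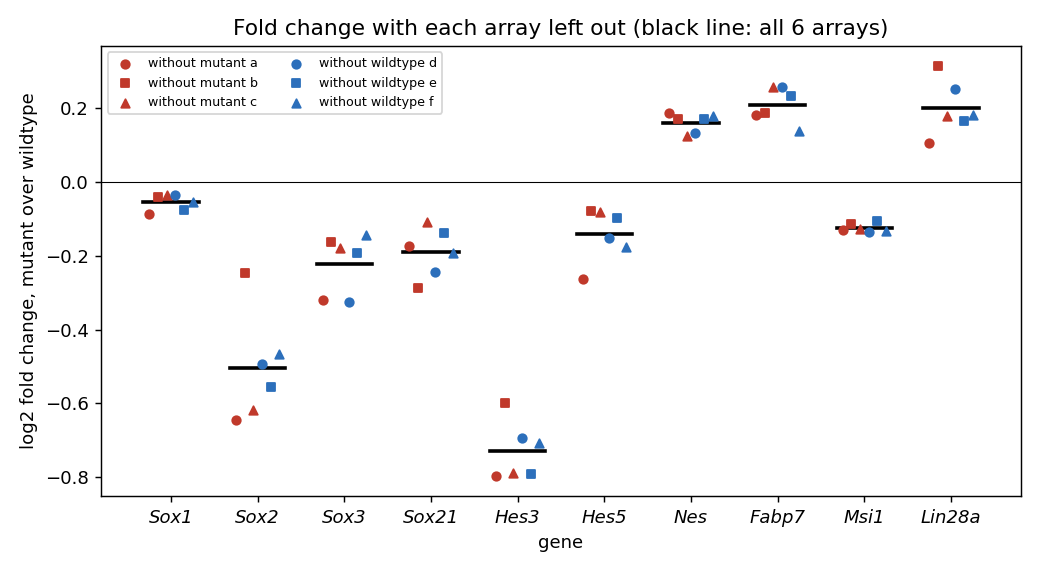
Log2 fold change of mutant over wildtype for each gene with 1 array left out (red for a mutant, blue for a wildtype array), beside the value from all 6 arrays (black line). All signs are kept, and leaving out mutant b moves Sox2 from -0.50 to -0.25.

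Other genes of neural progenitors, fixed as a list, had 8 of 16 tested members positive and a median log2 fold change of -0.03, beside 0.01 over all probes. In limma 0 of the 16 passed (3 had an unadjusted p below 0.05). The smallest p belonged to the transcription factor gene Tox3 (-0.29, SE 0.08, limma adjusted p = 0.247), to the zinc finger gene Zfp521 (0.28, SE 0.08, 0.257) and to Sox9 (-0.24, SE 0.09, 0.356), which acts in the onset of neural stem cells. Of 13 tested genes on the list of early, heterochronic genes, 0 passed in limma (1 with an unadjusted p below 0.05), with a median of -0.02. The pluripotency factor gene Sall4 (0.33, SE 0.10, limma adjusted p = 0.271), the embryonic stem cell factor gene Utf1 (-0.26, SE 0.11, 0.408) and the RNA-binding Igf2bp3 (-0.29, SE 0.13, 0.415) had its smallest p. The Lin28a paralogue Lin28b, of the same list, had -0.02 (SE 0.08).

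The Notch pathway list, which bears on Hes5, had 13 of 17 tested members positive and a median of 0.04. In limma 0 were past the threshold (2 had an unadjusted p below 0.05). The Numb paralogue Numbl had 0.27 (SE 0.08, limma adjusted p = 0.268), the ligand Jag1 -0.24 (SE 0.07, 0.288) and the glycosyltransferase Lfng, which modifies Notch, -0.20 (SE 0.09, 0.428). Hes1, a related Hes repressor, and the receptor Notch3 were not above background on any array.

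Genes of neurogenesis and young neurons had the highest median among the neural lists, at 0.19, with 15 of 20 tested members positive. At an unadjusted p under 0.05, 9 of the 20 were higher and 1 lower in mutants, against 6.43% and 5.81% of all probes. In limma 1 of them rose after adjustment, against 0.12% of all probes called. This was Nhlh2, a transcription factor of young neurons, detected in all 3 mutants and 0 wildtypes. Its level was at least 1.52-fold that of wildtypes (limma adjusted p = 0.0456). Nhlh2 met the filter of 3 arrays above background through the mutants alone, as did Myt1 below, and both are among the 9 higher genes. Their entry to the test thus depended on the group in which they are high, so the call is given as a description. Nhlh2 had an adjusted p of 0.105, 0.215 and 0.244 without wildtypes d, e and f, and without any 1 mutant it was above background on too few arrays to be tested. The proneural factor Neurod4 had log2 intensities of 7.88, 7.997 and 7.84 in mutants a, b and c, against 6.95, 7.38 and 6.99 in wildtypes d, e and f, with no overlap (log2 fold change 0.80, SE 0.12, limma adjusted p = 0.0821). Neurod4 passed without wildtype e (0.93, limma adjusted p = 0.03). Myt1, a zinc finger gene of differentiating neurons, had a level at least 1.56-fold that of wildtypes (limma adjusted p = 0.136), where it was above background on 0 arrays. Without mutant b the median of the list was 0.11.

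Genes of glia and late progenitors, the later states in which Fabp7 is also used, had a median of -0.07, with 4 of 11 tested members positive and 0 past the threshold in limma (1 at an unadjusted p under 0.05). Sox10 (-0.55, SE 0.12, limma adjusted p = 0.181) had the smallest p and is shared with the neural crest list, Nfia had 0.40 (SE 0.21, 0.487) and Gfap -0.10 (SE 0.08, 0.631). The median was 0.016 without mutant a. Sox8, S100b and Aqp4 were not above background on any array. Genes of the caudal neural plate and tailbud, where Sox2 is also expressed, had 10 of 14 tested members negative and a median of -0.11. In limma 0 were past the threshold. Beside 5.81% of all probes, 4 of these 14 genes were lower at an unadjusted p under 0.05. These were led by the signal Wnt3a (-0.47, SE 0.08, limma adjusted p = 0.137), the caudal factor Cdx1 (-0.48, SE 0.12, 0.239) and Nkx1-2 (-0.62, SE 0.18, 0.276), a gene of the caudal epiblast beside the node.

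**Figure D5:**
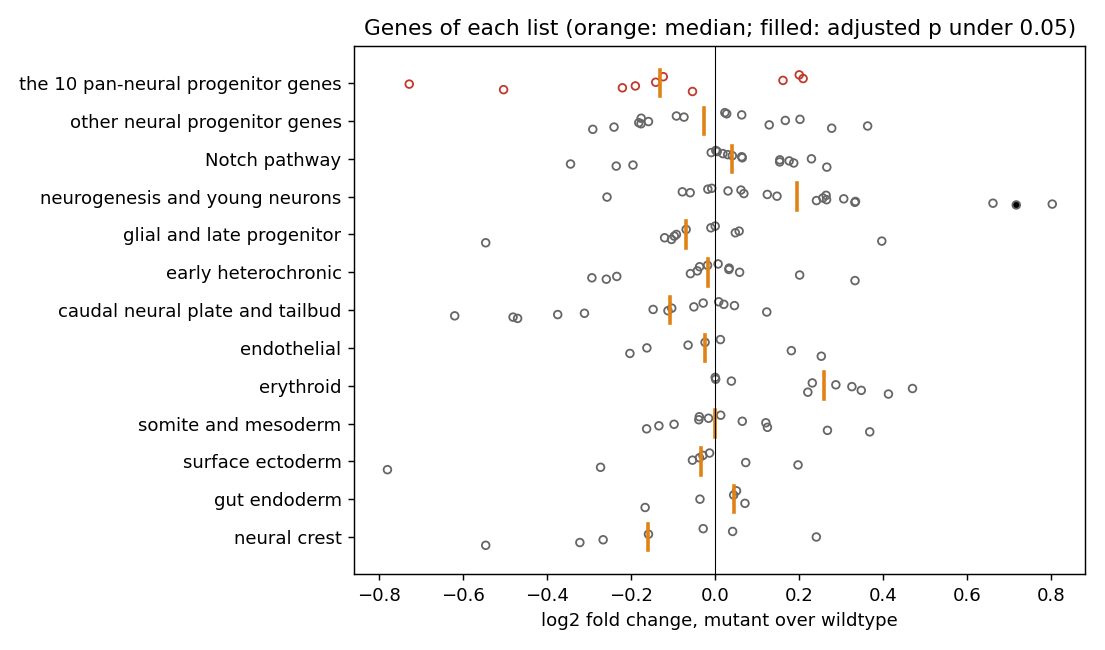
Log2 fold change of mutant over wildtype for the 10 pan-neural progenitor genes (red, top) and for the tested genes of each list (grey), with list medians in orange and genes past an adjusted p of 0.05 filled. Nhlh2 is the 1 filled point, and the neurogenesis list lies mostly right of 0.

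Among markers of other cell types in the tissue, erythroid genes had the highest median. All 10 tested erythroid genes had positive log2 fold changes, with a median of 0.26, though those of Hba-x (0.0012) and Hbb-bh1 (7.4e-05) were negligible. Their summed deposited level was 1696 to 1890.0 in mutants and 1355 to 1685 in wildtypes. The spot of the bright embryonic globin gene Hbb-y was marked and left out of the fit on mutant a, but the sum includes it, and mutant a had the highest sum. Over the 9 erythroid genes with a value on every array, the mean log2 level was 11.50, 11.38 and 11.30 in mutants a, b and c, against 11.33, 11.23 and 10.94 in wildtypes d, e and f. Mutant c thus lay just below wildtype d and the other mutants above all wildtypes. Of the 10 genes, 0 passed in limma, with Alas2 at 0.41 (SE 0.12, limma adjusted p = 0.266). At an unadjusted p below 0.05, 3 were higher in mutants, against 6.43% of all probes. Neural crest genes had 5 of 7 tested members negative and a median of -0.16. Of the 5, 3 had an unadjusted p below 0.05, against 5.81% of all probes lower, and 0 passed the adjustment. The sums of the list were 37.4 to 39.8 in mutants and 40.6 to 42.5 in wildtypes. The medians were -0.02 for 7 endothelial, 0.0 for 12 somite and mesoderm, -0.03 for 8 surface ectoderm and 0.04 for 5 gut endoderm genes. The part of these cell types in the values of the 10 genes was not tested.

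The genes whose 6 array values were most like those of Hes3 were Dchs1, Oat, Ilf2, Fgf13 and Scfd1, with Pearson correlations of 0.994, 0.994, 0.990, 0.988 and 0.988 over the 6 arrays, which fall into the 2 genotypes. Of 12843 genes compared, 254 had a correlation over 0.9. Their log2 fold changes ranged from -0.69 (Scfd1, SE 0.14) to -0.24 (Ilf2, SE 0.08).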

How the data were processed

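Posterior embryonic tissue in 3 Fkbp8 mutant and 3 wildtype samples was measured on 1-colour arrays. Per the file headers, spots were quantified with CodeLink Expression Analysis 4.1. The authors deposited the intensity of each spot, its local background and their difference, together with a normalized intensity that is this difference divided by 1 factor per array. The deposited series table equals that normalized intensity (largest difference 0.0), so it is linear and each array is scaled to its own median. No genome build is stated for the array.

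Titles gave groups and replicate letters, and littermates are not marked. The header names of mutant a and wildtype d open with 1 shared number of unstated meaning. Each array is on its own slide and no scan date was used, so no batch could be fitted. Since separate litters or animals are not documented, p-values reflect only how these 6 samples vary, which may be technical in part.

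Probes were named through the platform annotation where its accession equalled that in the array file (21577 probes) or where both named the same gene (89, Sox21 among them), then by RefSeq accession (417) or the symbol in the array file (497), with 204 naming several genes and 12183 none. Symbols follow RefSeq on GRCm38.p6. Background was corrected with normexp (offset 50), between 339 and 508 spots per array with a contamination, irregularity or mask mark were dropped as missing, control spots were left out, and log2 values were quantile-normalized. A spot marked good or saturated is called above background. A probe entered the test if 3 or more of the 6 arrays had it above background and each group had 2 or more usable spots. The test was made with limma 3.58.1 (R 4.3.3), two-sided, and p was adjusted by Benjamini-Hochberg across the 21688 probes. The fit was tested on simulated data. A fold against a group never above background is a bound, taken per array against the lowest value above background, or the probe's own where that was higher. Intervals are at 95%, from limma. The number of arrays limits the precision.

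The members and the 12 lists were chosen with earlier results of these data known, so no list was given a test. Named genes are the 10 members, the up to 3 genes of smallest p in each list described in detail, Fkbp8, Xist, Eif2s3y, Ddx3y, Uty, and the 5 genes most correlated with the member of smallest p. Lin28b, Hes1 and Notch3 were named after their values were seen. List values use the brightest probe of a gene. The alternatives covered normalization, background correction, offset, the deposited table, the filter, the variance model, marked spots, thresholds and each array left out.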

Additional observations from a re-analysis of the deposited data

How the results depend on the processing

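All 10 genes kept the sign of their log2 fold change under the 18 alternatives in values, filters and arrays, and 0 of them reached an adjusted p of 0.05 under any of these. Hes3 ranged from -0.84 to -0.60 with adjusted p from 0.0812 to 0.422, and Sox2 from -0.65 to -0.25 with adjusted p from 0.23 to 0.644. In the main fit, the count of genes past the threshold was 0 at an adjusted p of 0.1 too, and 3 at an unadjusted p under 0.05. Hes3 passed 0.1 under some alternatives. Its limma adjusted p was 0.0812 with the filter on all arrays, 0.0911 with an offset of 100 and 0.0982 without mutant a. The unadjusted p stayed under 0.05 in 18 of the 18 alternatives for Hes3, 14 for Sox2 and 8 for Fabp7. No paired analysis was made because the titles letter the mutants a to c and the wildtypes d to f and mark no pairs. A scan or slide block was not run, since each slide holds 1 array. Over all probes, the count of calls was 26, and it was 16 with median centring, 13 with floored background-subtracted values, 15 with the deposited table, 16 with the filter on all arrays and 5 (without mutant b) to 16 (without mutant a) with 1 array left out.

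With 1 array left out, the count past the threshold ranged from 0 to 1 for the neurogenesis list (0 without mutant a, b or c and without wildtype d or f) and from 0 to 1 for the surface ectoderm list (Tfap2c without wildtype e). Medians of the lists then ranged from 0.044 to 0.065 (Notch pathway), 0.11 to 0.22 (neurogenesis), -0.14 to 0.016 (glia and late progenitors) and -0.10 to 0.0018 (surface ectoderm). Nhlh2 had adjusted p of 0.0928 with median centring, 0.0621 with cyclic loess, 0.128 with floored values, 0.0829 with an offset of 100, 0.122 with the deposited table and 0.0504 with an intensity trend. The means over probes in place of the brightest probe left the 12 medians within the spread between replicates. Hes5, Sox1 and Msi1 are dim, and the offset of 50 draws their ratios towards 1.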
